A study of Mus musculus with 35 samples.

Results

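Hif3a and the genes of the hypoxia-inducible factor (HIF) system around it were followed in the open chromatin of mouse hepatocytes from animals with and without cancer cachexia, the wasting that accompanies some tumours. The 7 genes were Hif1a, Epas1, Hif3a, Arnt, Egln1, Egln3 and Vegfa. Every region that the deposited table assigned to 1 of these genes, and whose centre lay within 100 kb of a start site, was taken, which gave 165 of the 177904 regions. The 7 genes were chosen by name with earlier results of these data known, and their regions by distance. Hif3a was selected on its accessibility differences between cachexia and PBS in these libraries, so its values are described here without a test.

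Accessibility was measured by ATAC-seq, in which a transposase cuts open DNA, on tagged hepatocyte nuclei pulled from liver. All mice carried a Sun1/sfGFP nuclear envelope tag under a CAG promoter (CAG-Sun1/sfGFP) and an Albumin-Cre driver, so the tag marked cells in which the Albumin promoter had been active. BALB/c mice received PBS, C26 cells (livers taken at a stage labelled pre-cachexia or in cachexia) or, in a separate cohort with its own PBS mice, NC26 cells. C57BL/6N mice received PBS or 8025 cells, and PBS or MC38 cells in a separate cohort. C26 and 8025 tumours cause cachexia, and their livers were taken once more than 10% of body weight was lost. NC26 and MC38 tumours leave weight stable. Livers were collected at zeitgeber time 9. Each of the 9 groups had 4 animals, except 8025 PBS with 3, and each library came from its own animal. No source used here states the age of the mice.

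HIFs are heterodimers of an oxygen-labile alpha subunit and the stable beta subunit ARNT. Hif1a, Epas1 (HIF-2 alpha) and Hif3a encode alpha subunits, and short products of Hif3a are known to restrain the other alpha subunits. The prolyl hydroxylases PHD2 (Egln1) and PHD3 (Egln3) mark the alpha subunits for degradation when oxygen is present, and Egln3 is itself a HIF target. Vegfa, which encodes the main growth factor for blood vessels, is the classic HIF target. In liver, oxygen falls along the sinusoid from the portal to the central vein. The heterodimer binds a short core, ACGTG or GCGTG, within the hypoxia response element.

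Promoter sequence from RefSeq (GRCm38.p6, the assembly also known as mm10) was found for 6 of the 7 genes, all but Epas1. The windows of Egln3, Egln1 and Hif3a are shown because Egln3 was the only one of the 6 tested genes whose start-site region passed the test, Egln1 is its paralogue with a start-site region that did not, and Hif3a is the gene of interest. Each run is the 250 bases before the start site on the gene's own strand, which is the minus strand in all 3, and capitals mark the core ACGTG or GCGTG read on either strand. The windows are chr12:54203875-54204124 for Egln3, chr8:124949255-124949504 for Egln1 and chr7:17062428-17062677 for Hif3a.
Egln3: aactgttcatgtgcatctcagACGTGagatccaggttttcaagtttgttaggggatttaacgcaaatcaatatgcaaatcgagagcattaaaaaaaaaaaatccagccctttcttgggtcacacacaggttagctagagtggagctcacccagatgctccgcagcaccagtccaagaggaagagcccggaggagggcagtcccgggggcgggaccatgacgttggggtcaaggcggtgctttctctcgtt
Egln1: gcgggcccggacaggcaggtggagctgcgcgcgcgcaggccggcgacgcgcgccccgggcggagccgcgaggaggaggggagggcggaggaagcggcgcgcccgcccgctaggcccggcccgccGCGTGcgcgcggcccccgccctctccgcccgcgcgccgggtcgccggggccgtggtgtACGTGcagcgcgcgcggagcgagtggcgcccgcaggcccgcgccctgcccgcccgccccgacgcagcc
Hif3a: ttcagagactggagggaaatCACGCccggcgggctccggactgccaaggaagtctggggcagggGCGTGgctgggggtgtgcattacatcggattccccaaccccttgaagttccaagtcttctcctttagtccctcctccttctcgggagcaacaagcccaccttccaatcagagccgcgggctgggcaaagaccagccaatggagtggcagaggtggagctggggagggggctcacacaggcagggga
The Egln3 window held 1 core and 10 CpG dinucleotides at a GC content of 50.8%, and the Egln1 window held 2 cores and 51 CpG at 86%. The Hif3a window, at the start of the longer transcript, held 2 cores and overlapped 0 of the deposited regions. Of 32851 RefSeq windows of this length, 38.6% held at least 1 such core and the median GC content was 52.4%. A match is only a stretch of letters, and no match says nothing about the factor.

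Depth ran from 11.3 to 23.8 M (megatags) per library, except for 3.47 M in NC26 tumor replicate 1. The listed regions took in 37.3% to 62.9% of each library. A library's value for a region is the number of tags in 400 bp scaled by the authors to 10 M tags. Squared differences between pairs of replicates were 2.39 to 6.35 times what counting alone gives. Regions at the start sites of 9 of 10 hepatocyte markers summed to 1495 to 2586 tags per library. Of the macrophage markers only Adgre1 had a start-site region (0 to 8.91 tags), of the endothelial markers only Tie1 (15.6 to 42.7 summed), of the neutrophil markers only S100a8 (1.32 to 11.9), and none of the 8 lymphocyte markers had one. 4 of 10 stellate cell markers had one (72 to 212 tags summed) and so did 5 of 8 cholangiocyte markers. Tie1 stood at 24.6 to 34.7 tags in C26 PBS, 31.8 to 42.7 in pre-cachexia and 23.2 to 25.3 in C26 cachexia, and at 27.1 to 29.8 in 8025 PBS and 15.6 to 29.4 in 8025 cachexia. The stellate sum stood at 83.5 to 145 in C26 PBS, 87.4 to 106 in C26 cachexia, 123 to 167 in 8025 PBS and 80.8 to 116 in 8025 cachexia. The cholangiocyte sum stood at 104 to 143 in C26 PBS, 136 to 167 in C26 cachexia, 136 to 181 in 8025 PBS and 190 to 227 in 8025 cachexia. Adgre1 stood at 1.03 to 3.53 in 8025 PBS and 3.39 to 8.73 in 8025 cachexia, and S100a8 at 1.41 to 5.14 and 6.40 to 9.89. The part of these markers in the results was not tested. In nuclei pooled from a liver, fewer open nuclei and less opening in each nucleus cannot be told apart. The library numbers in the labels form a lower and a higher series, and whether a series was a batch is not stated. C26 lay wholly in the lower and 8025 wholly in the higher, so a difference between C26 and 8025 cannot be told apart from series or strain.

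The 165 regions comprised 51 at Epas1, 40 at Vegfa, 24 at Hif1a, 19 at Egln3, 13 at Egln1, 12 at Arnt and 6 at Hif3a. They formed 133 stretches without overlap, and overlapping regions share reads. 74 were intergenic, 69 intronic and 10 at promoters. All but 1 weakly open Epas1 region, 22409 bp upstream, passed the filter on low counts. The gene is the nearest one by distance, which does not show that a region acts on it.

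The 6 genes other than Hif3a had 158 tested regions. In C26 cachexia 8 of them rose and 14 fell, or 13.9%, against 14% of all regions, of which 6.91% rose and 7.13% fell (limma, Benjamini-Hochberg adjusted p under 0.05 over 177251 regions). In 8025 cachexia 3 rose and 14 fell, or 10.8%, against 12.4% of all regions, of which 6.99% rose and 5.38% fell. The 8025 split depended on the processing: 3 rose and 4 fell with library totals, 8 and 12 in a fit of single cohorts, and 10 and 14 with DESeq2. Its 17 calls became 10 without 8025 PBS replicate 1 and 9 without 8025 PBS replicate 2. As a group the genes were called about as often as the background. In C26 pre-cachexia 2 rose and 0 fell, against 1.27% of all regions. In NC26 1 region rose, against 0.186% of all regions. In MC38 limma called no region, against 0.0186% of all, and neither did edgeR or DESeq2, while 7 of the 158 had an unadjusted p under 0.05 in limma. The genes differed among themselves.

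**Figure D1:**
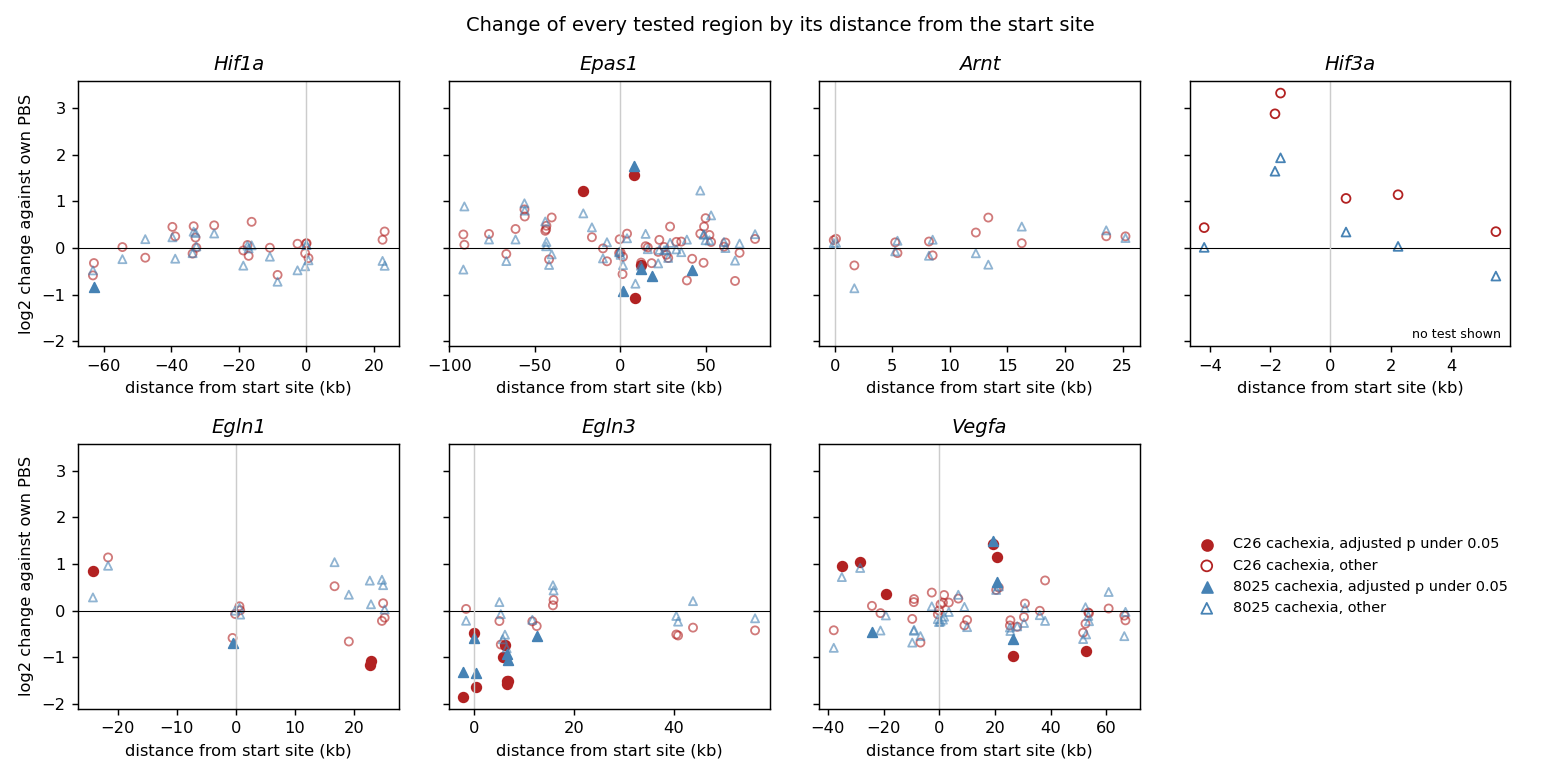
Log2 change against the cohort's own PBS group (vertical axis) for each tested region by its distance from the start site in kb (horizontal axis, which differs between panels), 1 panel per gene. Circles are C26 cachexia, triangles 8025 cachexia, and filled symbols have an adjusted p under 0.05 in limma. The filled Egln3 symbols all lie below 0, Arnt has no filled symbol, and Hif3a is drawn without a test.

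Hif3a, weakly open in control livers, stood higher in cachexia at an intronic pair of regions in both C26 and 8025. Its start-site region was the least open among those of the 7 genes, with a mean of 26.3 tags over all libraries. The 6 regions lay on chromosome 7. The region at chr7:17058132-17058532 is in intron 1 of the long transcript NM_001162950 and 1653 bp upstream of the internal start of NM_016868. It held 11.5, 5.74, 3.71 and 6.52 tags in C26 PBS, 12.3, 6.00, 8.38 and 6.24 in C26 pre-cachexia, and 39.6, 89.0, 64.5 and 141 in C26 cachexia. All 4 cachectic animals lay above all 8 others of the cohort, and they differed widely among themselves. In 8025 it held 2.80, 6.35 and 5.66 tags in PBS and 26.9, 14.3, 31.4 and 17.8 in cachexia, again without overlap. The NC26 libraries held 2.43 to 15.8 in PBS and 2.88 to 13.7 with tumour, and the MC38 libraries 3.25 to 20.5 and 4.77 to 25.1, so both weight-stable cohorts overlapped their controls.

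On the log2(value + 1) scale, which understates the change of weakly open regions, the region stood 3.32 ± 0.58 (SE) above PBS in C26 cachexia, where the mean went from 6.88 ± 3.32 to 83.5 ± 43.3 tags (SD, n = 4 each). The difference was 0.18 in pre-cachexia and 1.93 ± 0.63 in 8025 cachexia, where the mean went from 4.94 ± 1.88 (n = 3) to 22.6 ± 7.91 (n = 4). It was -0.34 in NC26 and 0.11 in MC38. Within the 2 library series the MC38 difference had opposite signs, 1.03 in the lower and -0.82 in the higher, and so had the NC26 difference, -0.76 and 0.08. The neighbouring region 1837 bp upstream overlaps this one and shares its reads, and it stood 2.88 ± 0.47 higher in C26 cachexia and 1.65 ± 0.51 higher in 8025 cachexia.

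The rest of the locus moved less. The region nearest the internal start, at chr7:17055960-17056360 in intron 2 of NM_016868, held 25.4, 22.9, 31.3 and 15.9 tags in C26 PBS and 23.2, 72.8, 46.7 and 87.8 in C26 cachexia. Cachectic replicate 1 lay inside the control range, and the difference of 1.06 ± 0.26 ran from 0.81 without C26 cachexia replicate 4 to 1.45 without replicate 1. In 8025 the same region went from 17.8, 19.4 and 20.6 to 20.7, 24.5, 34.5 and 24.1 tags, a difference of 0.34 ± 0.28. The region at chr7:17059982-17060382, 2245 bp inside the long transcript, held 15.4 to 17.8 tags in C26 PBS, 19.8 to 22.5 in pre-cachexia and 30.6 to 56.2 in cachexia. Its difference was 1.14 ± 0.25 in C26 cachexia and 0.03 ± 0.27 in 8025. The remaining pair, in exon 5 and 4186 bp upstream, differed from PBS by 0.35 and 0.44 in C26 cachexia and by -0.60 and 0.01 in 8025. In each of C26 and 8025, 3 of the 6 regions had cachectic values wholly above PBS, and 8.64% and 13.5% of all tested regions did. Hif3a was chosen for these values, so nothing is read from those shares.

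**Figure D2:**
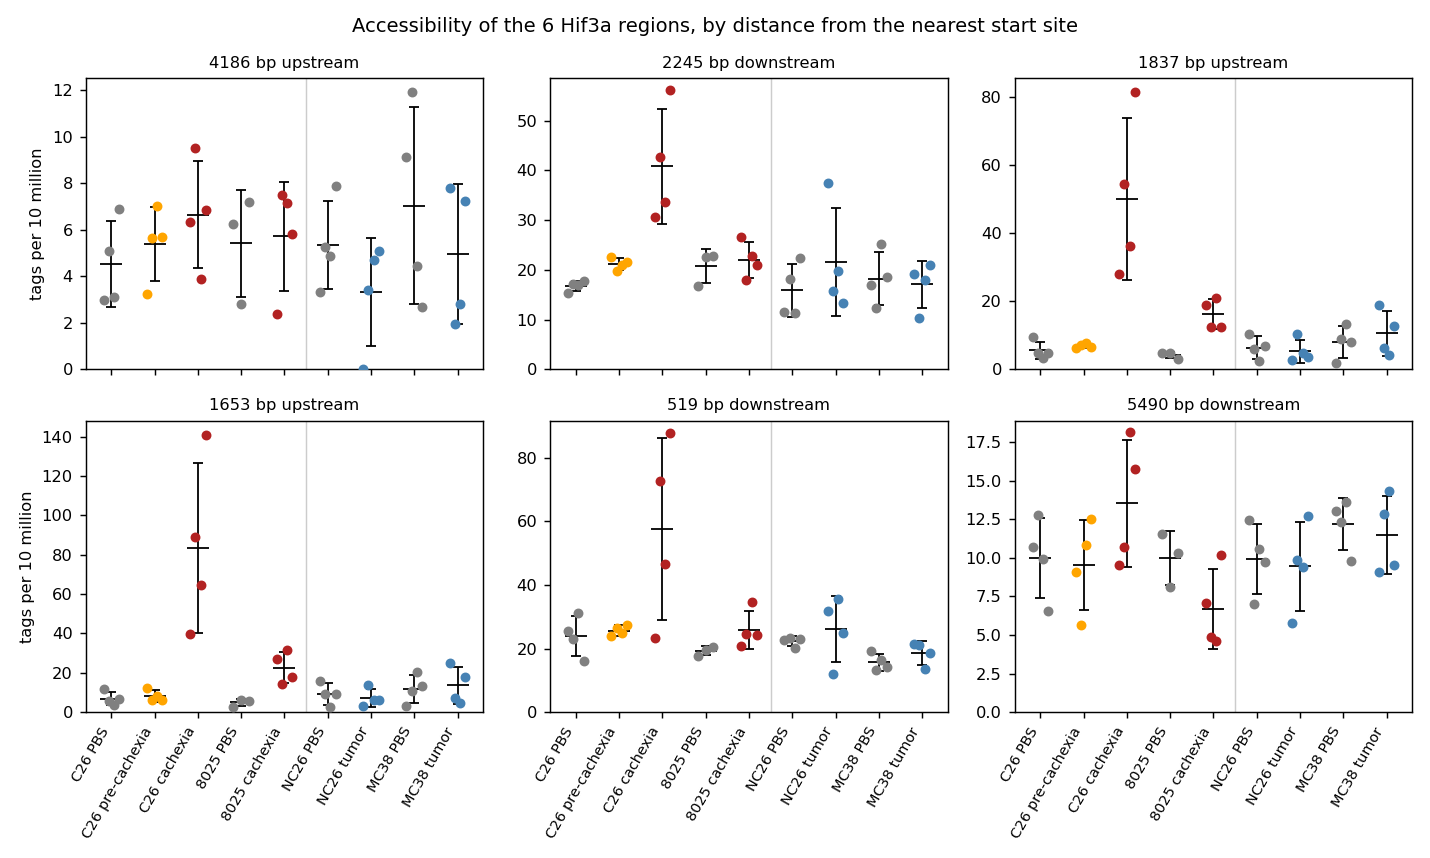
Tags per 10 M (vertical axis, from 0) at the 6 Hif3a regions in each library, by group (horizontal axis). Dots are libraries, and bars the mean and SD. The overlapping regions 1837 and 1653 bp upstream of the internal start reach 81.6 and 141 tags in C26 cachexia, while the exonic region 5490 bp downstream stays between 4.63 and 18.1 in every library.

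By a root mean square distance over the 5 differences from PBS, the regions most like the Hif3a start-site region among 82279 compared were at Serpina11 (0.05), 1810010H24Rik (0.05), Plppr1 (0.09), F2rl2 (0.09) and Capn10 (0.09). Their C26 cachexia differences ran from 0.96 to 1.06. By the mean absolute distance 4 of these 5 were again among the nearest 5.

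The start sites of the other factor genes were widely open and did not pass the test in any cohort. The Hif1a start-site region (chr12:73907639-73908039) had the highest mean of the 165, 238 tags. It held 184, 255, 220 and 195 in C26 PBS and 241, 258, 213 and 231 in C26 cachexia, and 205, 229 and 257 in 8025 PBS and 263, 238, 230 and 270 in 8025 cachexia. The groups overlapped in both cohorts, with log2 changes of 0.10 ± 0.07 (adjusted p = 0.4) and 0.07 ± 0.07 (adjusted p = 0.62, limma). The Arnt start-site region (chr3:95434104-95434504) held 169 to 221 tags in C26 PBS and 215 to 232 in C26 cachexia, a change of 0.17 ± 0.07 (adjusted p = 0.11, limma), and 206 to 246 and 233 to 289 in 8025, a change of 0.10 ± 0.08 (adjusted p = 0.44). None of the 12 Arnt regions was called by limma in any comparison, and 2 in C26 cachexia and 1 in 8025 had an unadjusted p under 0.05. The Epas1 start-site region, in the 5' UTR of exon 1 (chr17:86753889-86754289), held 82.9 to 140 tags in C26 PBS and 91.3 to 120 in cachexia, with changes of -0.10 ± 0.11 (adjusted p = 0.63) and, in 8025, -0.15 ± 0.12 (adjusted p = 0.47, limma).

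**Figure D3:**
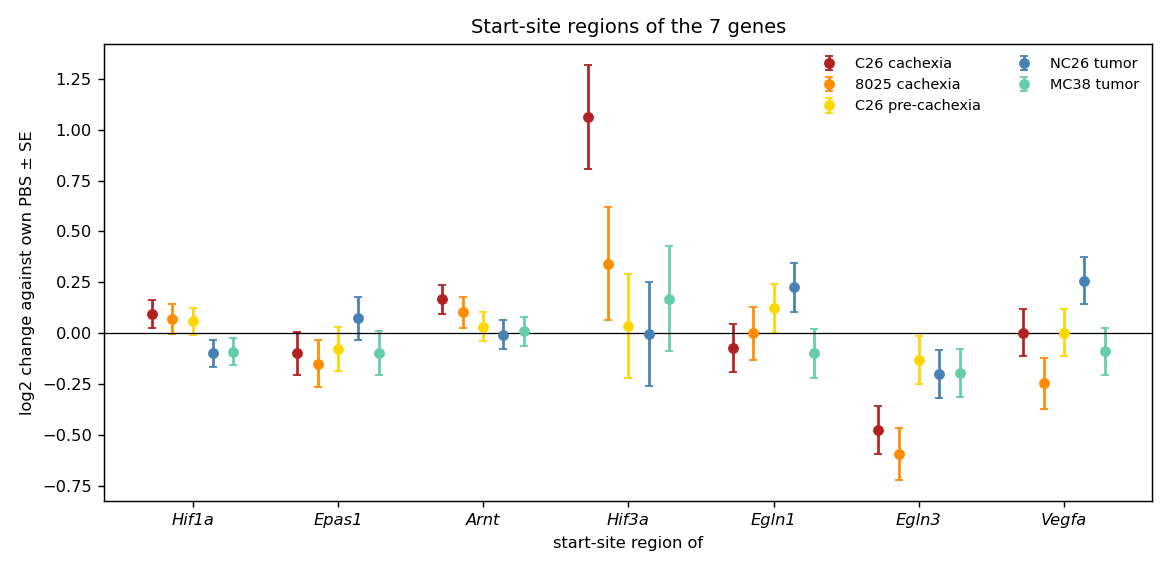
Log2 change against own PBS with its SE (vertical axis) at the start-site region of each gene (horizontal axis), coloured by comparison. Egln3 is lowest in C26 cachexia (-0.48) and 8025 cachexia (-0.59), and Hif3a is highest in C26 cachexia (1.06), while the other 5 genes stay between -0.25 and 0.26.

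Away from the start sites Hif1a showed little that was stable. None of its 24 regions was called in C26 cachexia and 1 was called in 8025, 62945 bp upstream (-0.84, adjusted p = 0.044, limma). That call was lost without 8025 cachexia replicate 1, 2 or 3 or 8025 PBS replicate 1 or 2 (adjusted p of 0.088 to 0.27), and also with library totals, loess, RLE factors, promoter share, single cohorts or the replicate block (0.054 to 0.12). In pre-cachexia an intronic region 23239 bp downstream rose by 1.52 (adjusted p = 0.044, limma), and this call held only without C26 PBS replicate 4. Leaving out any of the other 7 libraries gave an adjusted p of 0.058 to 0.19, and the adjusted p was 0.069 with edgeR and 0.053 with promoter share.

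Epas1, whose product is the main HIF alpha subunit acting on lipid and iron genes in hepatocytes, changed inside its first intron. The region at chr17:86761872-86762272, 8208 bp downstream of the start, held 7.04, 11.5, 7.12 and 9.06 tags in C26 PBS, 19.6, 5.64, 11.9 and 9.65 in pre-cachexia and 27.2, 15.03, 42.5 and 34.3 in cachexia. In 8025 it held 12.5, 6.35 and 13.9 in PBS and 37.3, 41.2, 41.7 and 35.5 in cachexia. Cachectic and PBS animals did not overlap in either cohort, as also held for the 8.64% and 13.5% of all tested regions given above. It rose by 1.56 ± 0.28 in C26 cachexia (adjusted p = 6.2e-05) and by 1.76 ± 0.30 in 8025 (adjusted p = 4.2e-05, limma). Against pre-cachexia it stood 1.35 ± 0.28 higher (adjusted p = 0.0015), a comparison in which 5.4% of all regions were called. The change was 0.21 in pre-cachexia, 0.12 in NC26 and 0.43 in MC38, none of which passed the test.

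The same intron held regions that fell. The region 1353 bp downstream went from 33.4, 34.2 and 36.01 tags to 21.3, 16.7, 15.6 and 20.1 in 8025 cachexia, a fall of -0.93 ± 0.22 (adjusted p = 0.0024, limma), and its change in C26 was -0.56 (adjusted p = 0.053). The region 8878 bp downstream fell by 1.08 in C26 cachexia (adjusted p = 0.0065), and without C26 PBS replicate 1 that call was lost (adjusted p = 0.059). An intergenic region 21610 bp upstream rose by 1.21 ± 0.29 in C26 cachexia (adjusted p = 0.0025, limma). Its mean of 9.88 tags lay below the median region's 10.94. It held 7.9, 5.1, 2.48 and 4.35 tags in C26 PBS and 8.04, 11.99, 10 and 10.78 in pre-cachexia. Within the library series it also stood higher with weight-stable tumours, by 0.36 and 1.11 in NC26 and 0.84 and 0.47 in MC38. None of these other changes was called. In all, 2 Epas1 regions rose and 2 fell of 50 tested in C26 cachexia, or 8% against 14% of all regions, and 1 rose and 4 fell in 8025, or 10% against 12.4%. The region 16129 bp downstream, with a mean of 193 tags the most open Epas1 region more than 1 kb from the start, was not called in any comparison.

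Egln3 fell at its promoter, first exon, first intron and upstream region in both cachexia cohorts, with more regions called lower than any other of the 6 tested genes. Of 19 regions, 8 fell and 0 rose in C26 cachexia, against 7.13% of all regions called lower, and the 8 lay in 5 separate stretches. In 8025 cachexia 6 fell and 0 rose, in 5 stretches, against 5.38% of all regions. The median log2 change over the 19 was -0.51 in C26 and -0.24 in 8025, and over all tested regions it was -0.01 in both. In weight-stable NC26 the Egln3 median was -0.35, against -0.03 over all tested regions. There 0 of the 19 were called, and 7 had an unadjusted p under 0.05 (limma). In MC38 the Egln3 median was -0.05. The lower median was thus not particular to cachexia. The regions that fell lay between 2074 bp upstream and 12592 bp downstream of the start.

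The largest fall was at an intergenic region at chr12:54205748-54206148, 2074 bp upstream of Egln3. It held 58.9, 102, 82.7 and 79.3 tags in C26 PBS, 54.4, 92.8, 43.2 and 66.1 in pre-cachexia and 35.1, 20.6, 22.04 and 15.1 in cachexia. In 8025 it held 64.2, 77.5 and 107 in PBS and 26.03, 29.6, 42.1 and 36.6 in cachexia. Every cachectic animal lay below every control of its cohort, as at 6.58% of all tested regions in C26 and 9.16% in 8025, and below every pre-cachectic animal, as at 5.91%. The change was -1.85 ± 0.20 in C26 cachexia (adjusted p = 2.6e-08), -1.32 ± 0.22 in 8025 (adjusted p = 4.7e-05) and -1.39 ± 0.20 between cachexia and pre-cachexia (adjusted p = 2.8e-05, limma). In pre-cachexia it was -0.46 (adjusted p = 0.33), in NC26 -0.53 (adjusted p = 0.34, and -0.59 and -0.46 within the library series) and in MC38 -0.21 (adjusted p = 0.94).

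Exon 1 of Egln3 also fell in both cachexia cohorts. The region at chr12:54203129-54203529 held 28.4 to 36.5 tags in C26 PBS, 15.04 to 28.6 in pre-cachexia and 6.17 to 12.3 in cachexia, and 33.7 to 50.4 and 10.9 to 22.4 in 8025. It fell by 1.63 in C26 cachexia (adjusted p = 2.1e-06) and by 1.33 in 8025 (adjusted p = 0.00024, limma). Its change in pre-cachexia was -0.80 (adjusted p = 0.081). In the lower and higher library series it changed by -0.72 and -0.36 in weight-stable MC38 and by 0.03 and -0.73 in NC26. Neither cohort had a called Egln3 region. MC38 tumor replicate 3 held 39.5 tags here and the others of its group 18.9 to 22.4. The promoter region at chr12:54203715-54204115, which holds most of the printed Egln3 window, went from 67.7, 101, 104 and 98.9 tags to 64.4, 66.8, 66.8 and 74.7 in C26 and from 110, 118 and 135 to 80.7, 92.3, 82.3 and 75.6 in 8025. It fell by 0.48 ± 0.12 (adjusted p = 0.0037) and by 0.59 ± 0.13 (adjusted p = 0.00095, limma). Scaled by library totals alone, these 2 promoter calls were lost (adjusted p = 0.11 and 0.052). In intron 1 the region 6586 bp downstream fell by 1.57 in C26 cachexia (adjusted p = 0.00013), and its change in 8025 was -0.81 (adjusted p = 0.088). Within the library series this region also stood lower in weight-stable NC26, by -0.74 and -1.41, without a call. In MC38 the changes were 0.33 and 0.09. The most open region of the gene, 11715 bp downstream with a mean of 149 tags, changed by -0.23 (adjusted p = 0.18) and -0.20 (adjusted p = 0.32), so the fall did not extend to every region.

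**Figure D4:**
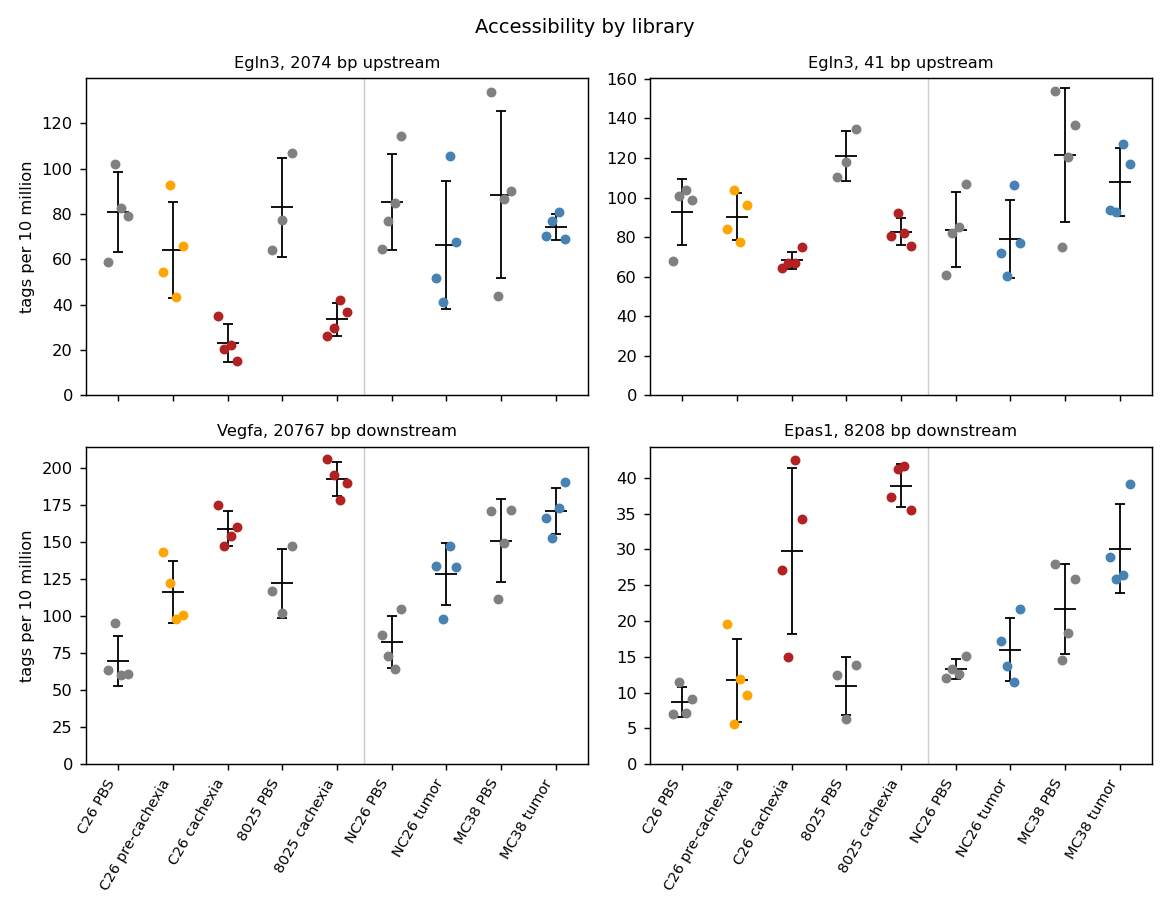
Tags per 10 M (vertical axis, from 0) in each library by group (horizontal axis) for 2 Egln3 regions, the Vegfa region 20767 bp downstream and the Epas1 region 8208 bp downstream. Dots are libraries, and bars the mean and SD. At the Egln3 region 2074 bp upstream the C26 cachexia libraries reach at most 35.1 tags and the C26 PBS libraries at least 58.9, while at Vegfa the C26 cachexia libraries start at 147 and C26 PBS ends at 95.0.

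Egln1, the hydroxylase that sets HIF levels under normal oxygen, did not pass the test at its start-site region. That region (chr8:124949192-124949592) held 99.7 to 139 tags in C26 PBS and 98.7 to 132 in C26 cachexia, and 119 to 153 and 118 to 157 in 8025. The changes were -0.07 ± 0.12 (adjusted p = 0.77) and 0.00 ± 0.13 (adjusted p = 1, limma). Of 13 Egln1 regions, 1 rose and 2 fell in C26 cachexia, against 6.91% and 7.13% of all regions, and 1 fell in 8025, against 5.38%. Both that fell in C26 overlap in intron 1. The stronger, at chr8:124926429-124926829, held 20.3, 27.4, 19.5 and 26.8 tags in PBS and 10.3, 7.91, 8.10 and 16.1 in cachexia, a fall of 1.17 (adjusted p = 0.0016, limma). In pre-cachexia it held 17.96, 12.7, 12.4 and 13.9, already below the PBS values, though no Egln1 region was called there. In 8025 it held 12.8, 17.6 and 14.7 in PBS and 19.8, 17.9, 51.8 and 20.1 in cachexia, a change of 0.64 (adjusted p = 0.15) in which replicate 3 stood apart. The weaker calls at Egln1, 24167 bp upstream in C26 (adjusted p = 0.035) and 573 bp upstream in 8025 (adjusted p = 0.048), were fragile. The C26 call held only without C26 cachexia replicate 4 or C26 PBS replicate 1 and the 8025 call only without 8025 cachexia replicate 4, and leaving out any other library of the pair of groups gave an adjusted p of 0.052 to 0.15. With the replicate block they were 0.052 and 0.17, and the 8025 call was also lost in every other scaling, with no filter, with promoter share and in single cohorts (0.053 to 0.12).

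Vegfa did not pass the test at its start and did at several distant regions. The promoter region (chr17:46032227-46032627) held 63.8 to 80.0 tags in C26 PBS and 60.9 to 90.2 in C26 cachexia, a change of 0.00 ± 0.12 (adjusted p = 1), and its change in 8025 was -0.25 ± 0.13 (adjusted p = 0.22, limma). Of 40 regions, 5 rose and 2 fell in C26 cachexia and 2 rose and 2 fell in 8025. That is 12.5% higher and 5% lower in C26, against 6.91% and 7.13% of all regions, and 5% each way in 8025, against 6.99% and 5.38%. All that were called were intergenic.

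The Vegfa region at chr17:46004196-46004596, 20767 bp downstream of the start, rose in C26 pre-cachexia, C26 cachexia, 8025 cachexia and NC26. It held 63.2, 95.0, 60.1 and 60.5 tags in C26 PBS, 143, 122, 98.1 and 101 in pre-cachexia and 175, 147, 154 and 160 in cachexia, so both tumour stages lay wholly above PBS and cachexia above pre-cachexia. Of all tested regions, 8.64% lay wholly above PBS in cachexia and 4.55% in pre-cachexia, and 4.45% lay wholly above pre-cachexia in cachexia. In 8025 it held 117, 102 and 147 in PBS and 206, 195, 179 and 190 in cachexia. NC26 went from 87.1, 73.1, 64.0 and 104 to 134, 98.0, 147 and 133, with overlap. MC38 held 171, 112, 149 and 171 in PBS and 166, 153, 173 and 190 with tumour, again with overlap.

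The rise was 1.15 ± 0.11 in C26 cachexia (adjusted p = 2.8e-10), 0.64 ± 0.11 in pre-cachexia (adjusted p = 0.00062) and 0.61 ± 0.12 in 8025 (adjusted p = 0.00027, limma). Between cachexia and pre-cachexia it was 0.51 (adjusted p = 0.0023), and with library totals alone 0.46 (adjusted p = 0.11). The NC26 rise was 0.53 ± 0.11 (adjusted p = 0.019, limma) and was 0.53 within each library series, but the call was lost without NC26 PBS replicate 2 (adjusted p = 0.083), NC26 PBS replicate 3 (0.13) or NC26 tumor replicate 1 (0.12), with library totals (0.1), and in a fit of that cohort alone (0.16). In MC38 the change was 0.14 (adjusted p = 0.92), and 0.18 and 0.09 within the series.

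A less open region beside it, 19465 bp downstream (chr17:46005498-46005898), went from 13.2, 10.5, 15.8 and 5.80 to 26.4, 26.1, 33.7 and 41.5 tags in C26 cachexia and from 10.9, 10.9 and 20.3 to 57.7, 40.7, 25.9 and 47.1 in 8025. It rose by 1.42 ± 0.30 (adjusted p = 0.00076) and 1.49 ± 0.33 (adjusted p = 0.0013, limma). The region 26564 bp downstream (chr17:45998399-45998799) moved the other way. It held 60.1 to 104 tags in C26 PBS and 26.4 to 51.9 in C26 cachexia, and 72.0 to 75.1 and 47.5 to 51.2 in 8025, with no overlap in either cohort, as at 6.58% and 9.16% of all tested regions. It fell by 0.98 ± 0.15 (adjusted p = 8.8e-06) and by 0.61 ± 0.17 (adjusted p = 0.0094, limma), and the call in 8025 was lost with library totals (adjusted p = 0.13). Within the library series it also stood lower in weight-stable NC26, by -0.72 and -0.53, without a call. In MC38 the changes were -0.18 and 0.24. Neighbouring intergenic regions at the same gene thus changed in opposite directions.

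Whether the changes differed between cachexia and a weight-stable tumour of the same strain was tested as a difference of differences. C26 cachexia less NC26 gave 4 calls among the 158 regions of the 6 genes, against 2.14% of all regions. The Egln3 region 2074 bp upstream fell further in C26 by -1.32 ± 0.29 (adjusted p = 0.0085, limma), a call that no alternative run removed. The other 3 were weaker. The Vegfa region 20767 bp downstream rose further by 0.62 (adjusted p = 0.022), and this was lost without C26 PBS replicate 3 (0.071), NC26 PBS replicate 1 (0.069) or NC26 PBS replicate 4 (0.06), and with library totals (0.28). The Epas1 region 8208 bp downstream rose further by 1.44 (adjusted p = 0.037), lost when any of 9 of the 16 libraries was left out (0.057 to 0.1): C26 cachexia replicate 3 or 4, C26 PBS replicate 1 or 3, any NC26 PBS replicate, or NC26 tumor replicate 3. It was also lost with library totals (0.078) and in single cohorts (0.068). Egln3 exon 1 fell further by -1.28 (adjusted p = 0.029), lost without C26 cachexia replicate 4, C26 PBS replicate 3 or 4, NC26 PBS replicate 1 or 2, or NC26 tumor replicate 1 or 3 (0.054 to 0.1), with library totals (0.066) and with edgeR (0.058).

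8025 cachexia less MC38 gave 1 call, against 1.7% of all regions. The Egln3 region 2074 bp upstream fell further by -1.12 ± 0.30 (adjusted p = 0.041, limma), and this held only without 8025 cachexia replicate 3, 8025 PBS replicate 1, MC38 PBS replicate 1 or MC38 tumor replicate 4. Each of the other 11 libraries ended it when left out (adjusted p of 0.052 to 0.1), as did library totals (0.16) and leaving out the series term (0.052). C26 cachexia less 8025 cachexia gave 1 call, against 0.103% of all regions, at the Egln1 region 22625 bp downstream (-1.81 ± 0.39, adjusted p = 0.04, limma). It held only without 8025 cachexia replicate 1 or 2 or C26 cachexia replicate 4, and without 8025 cachexia replicate 3 the adjusted p was 0.14. It was also lost with library totals (0.088), promoter share (0.15), pseudocount 0.5 (0.053) and the replicate block (0.15).

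Cachexia and pre-cachexia in C26 share their PBS controls, so each is given only by its own values. Compared directly, cachexia stood apart from pre-cachexia at 9 regions of the 6 genes, 5 higher and 4 lower, against 2.16% and 3.24% of all regions. The 9 became 14 with DESeq2 or loess and 5 with library totals, and they became 3 without C26 pre-cachexia replicate 2 and 5 without C26 cachexia replicate 4. Beside the Egln3, Epas1 and Vegfa regions above, Egln3 exon 1 was lower by -0.83 (adjusted p = 0.027), lost without C26 cachexia replicate 4 (0.17), C26 pre-cachexia replicate 1 (0.061) or 2 (0.14), with library totals (0.051) and with promoter share (0.056). The other 5 were each lost without C26 pre-cachexia replicate 2 (0.057 to 0.25) and without C26 cachexia replicate 4 (0.06 to 0.1), and those at Epas1, 14845 bp downstream, and Vegfa, 51705 bp downstream, also without most of the other 6 libraries.

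The remaining genes of the pathway were counted from lists chosen with results of these data known. Each share below is to be read against all tested regions, of which 6.91% rose and 7.13% fell in C26 cachexia and 6.99% rose and 5.38% fell in 8025 cachexia. Among 12 further regulators of HIF (136 tested regions), 10 regions rose and 9 fell in C26 cachexia, or 7.35% and 6.62%, and 3 rose and 11 fell in 8025, or 2.21% and 8.09%. Rbx1, a subunit of the ligase that degrades HIF alpha, had a region that rose by 1.53 in C26 (from 13.97 to 41.8 tags, adjusted p = 1.5e-05, limma). Crebbp, a HIF coactivator, had a region 27.3 kb downstream that fell by 2.32 in C26 (from 13.96 to 2.17 tags, adjusted p = 1.2e-06) and another 0.705 kb upstream that rose by 0.34 (from 79.2 to 103.6 tags, adjusted p = 0.039, limma). Cited2, which competes with HIF for that coactivator, had a region 39.2 kb upstream that rose by 0.51 in C26 (adjusted p = 0.029) and 1.04 in 8025 (adjusted p = 4.5e-05, limma), and its region 0.37 kb upstream fell in C26 from 47.5 to 35.1 tags (-0.47, adjusted p = 0.013). Hif1an, the asparaginyl hydroxylase that blocks coactivator binding, had a region that fell by 0.90 in 8025 (adjusted p = 0.019).

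Among 17 glycolytic HIF targets (168 regions), 13 regions rose and 11 fell in C26 cachexia, or 7.74% and 6.55%, and 12 rose and 17 fell in 8025, or 7.14% and 10.1%, with medians of -0.01 and -0.03. A region 3.86 kb inside Slc2a1, which encodes the glucose transporter GLUT1, rose in both, by 1.21 (adjusted p = 0.00016) and 1.58 (adjusted p = 1.2e-05, limma). A region at Pfkfb3, an activator of glycolytic flux, rose by 2.55 in C26 cachexia (adjusted p = 8.9e-05) and by 2.20 in pre-cachexia (adjusted p = 0.0048, limma). In 8025 a Pfkfb3 region 19.9 kb upstream rose (1.74, adjusted p = 0.0014) and 1 at 17.8 kb downstream fell (-1.07, adjusted p = 2e-05, limma). A region at Gpi1, glucose-6-phosphate isomerase, fell by 0.85 in C26 (adjusted p = 0.00017) and 1.31 in 8025 (adjusted p = 6.4e-07, limma). Another Gpi1 region, 3.82 kb upstream, rose in C26 from 159 to 211 tags (0.355, adjusted p = 0.0006, limma). Regions at Ldha and Eno1 fell in C26 and 1 at the Gapdh start fell in 8025.

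Among the 26 other HIF targets (303 regions), 53 regions rose and 10 fell in C26 cachexia, or 17.5% and 3.3%, with a median of 0.15 against -0.01 for all regions. In 8025 cachexia 39 rose and 6 fell, or 12.9% and 1.98%, with a median of 0.12. The 10 hepatocyte markers, counted in the same way over 199 regions, had 37 higher and 9 lower in C26, or 18.6% and 4.52%, and 12 and 20 in 8025, or 6.03% and 10.1%. Whether the HIF targets differ from other genes was not tested. Ddit4, a stress-induced inhibitor of mTORC1, had a region that rose from 43.2 to 143 tags in C26 (1.63, adjusted p = 9.2e-07) and another that rose from 2.04 to 14.01 in 8025 (2.24, adjusted p = 8.6e-06, limma). Regions at Ndrg1 and at Tfrc, the transferrin receptor, rose by 1.37 and 1.36 in C26. Another Ndrg1 region, 44.1 kb upstream, fell in C26 from 81.4 to 55.3 tags (-0.59, adjusted p = 0.0003, limma). The Tfrc region also rose in pre-cachexia, by 1.09 (adjusted p = 0.023, limma). A region 10.5 kb upstream of Hilpda, an inhibitor of lipid droplet breakdown, fell in both, by 1.94 (adjusted p = 1.3e-07) and 1.10 (adjusted p = 0.0033, limma). Many of these genes also answer to signals other than oxygen.

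Of the VEGF ligands and receptors (9 genes, 89 regions), 2 regions rose and 7 fell in C26 cachexia, or 2.25% and 7.87%, and 4 rose and 2 fell in 8025, or 4.49% and 2.25%. A region 65.9 kb upstream of Kdr, which encodes the main VEGF receptor, fell by 1.14 (adjusted p = 0.00013) and 0.73 (adjusted p = 0.028, limma). At Flt1, also of this list, a region 22.3 kb upstream rose by 0.66 in C26 (adjusted p = 0.0026, limma). A different Flt1 region, 12.1 kb upstream, rose by 2.13 in 8025 (adjusted p = 0.0027, limma). The zonation lists hold genes whose expression follows the oxygen gradient. Pericentral genes had 13 regions higher and 17 lower of 192 in C26 cachexia, or 6.77% and 8.85%, and 30 and 12 in 8025, or 15.6% and 6.25%. Periportal genes had 21 higher and 6 lower of 276 in C26, or 7.61% and 2.17%, and 12 and 19 in 8025, or 4.35% and 6.88%.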

How the data were processed

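Open chromatin was measured by paired-end ATAC-seq of tagged hepatocyte nuclei in 35 libraries. Per the submitters' processing notes, reads were handled with BWA 0.7.5a-r405, SAMtools and HOMER on mm10. Per the file headers, the deposited values are a signal from HOMER's annotation of 1 merged peak list: tags in 400 bp around each peak centre, which the authors set to a library size of 10 M (megatags). The sources used here do not say how peaks were called or duplicates handled. Multiplied back by the library total, 100% of values were whole read ends of 0.5 tag each (tolerance 0.05). The depth was 3.47 to 23.8 M tags, which limits the precision of weakly open regions.

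From these values, libraries were scaled by TMM factors (edgeR 4.0.16) and compared on log2(value + 1) by limma 3.58.1 (trend, robust) in R 4.3.3, over the 177251 regions that passed edgeR's expression filter (minimum count 10, minimum total 15), with 9 groups, library series as a covariate and 25 residual degrees of freedom. P-values were two-sided and adjusted by Benjamini-Hochberg over all tested regions, with a threshold of 0.05. Means ± SD use the deposited values. The members and gene lists were chosen with earlier results of these data known, so no list count is independent evidence, and no test result of Hif3a is reported or counted at the genes.

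Picked for each gene were the start-site region, the most open region beyond 1 kb, and up to 3 regions a direction with the lowest adjusted p in each comparison, and for each list up to 3 genes a direction. Not all of those picked are given above. Those left out include fragile calls at Epas1 12084 bp downstream in C26 cachexia and Vegfa 24155 bp upstream in 8025 cachexia. With library totals their adjusted p was 0.34 and 0.22 (limma). Chosen after their values were seen were Egln3 12592 bp downstream, Epas1 22409 bp upstream and the remaining pair at Hif3a. Alternatives were other scalings (RLE, library totals, loess), edgeR's quasi-likelihood test and DESeq2 1.42.0 on the recovered reads, pseudocounts 0.5 and 5, no filter, other distance limits and threshold, no series term, a replicate block, promoter share as a covariate, single cohorts, and leaving out each library. Loess and promoter share were added after seeing the data. On simulated data for C26 cachexia against PBS with 176086 regions, 31% of 100 regions changed 2-fold and 97% of 100 changed 4-fold were recovered, with 5 false calls. The simulation gave every region the same spread beyond counting, and changed regions were drawn only above a minimum mean count. These shares thus do not describe the most weakly open regions or the varied spread of the real libraries.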

Additional observations from a re-analysis of the deposited data

Results flagged for a closer look

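In 336 groups of 4 libraries at the named regions, 17 had a library far from the other 3 (a gap above Dixon's 95% critical share of the group's range), which chance gives in about 1 group in 20. C26 pre-cachexia replicate 2 stood high at Arnt 86 bp upstream (245 tags, the others 194 to 202), Hif1a 23239 bp downstream (64.5, the others 41.2 to 43.5) and Egln3 43839 bp downstream (54.3, the others 36.4 to 39.2). C26 PBS replicate 2 stood high at Vegfa 20767 bp downstream (95 tags, the others 60.1 to 63.2), Vegfa 1339 bp downstream (181, the others 122 to 130) and Egln1 22823 bp downstream (43, the others 26.3 to 27.2). C26 PBS replicate 1 was low at Egln3 41 bp upstream (67.7, the others 98.9 to 104), and C26 PBS replicate 4 was high at Egln3 6586 bp downstream (25.7, the others 14.1 to 15.6). 8025 cachexia replicate 3 was high at Egln1 22625 bp downstream (51.8, the others 17.9 to 20.1) and Arnt 5446 bp downstream (70.7, the others 39.3 to 44.5).

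In MC38, PBS replicate 1 was high at Egln1 22625 bp downstream (20.2, the others 11.1 to 12.6) and Vegfa 28387 bp upstream (6.17, the others 3.16 to 3.53), PBS replicate 2 low at Epas1 225 bp downstream (115, the others 172 to 180) and PBS replicate 4 high at Hif1a 23239 bp downstream (31, the others 15.2 to 17.6). MC38 tumor replicate 1 was low at Hif1a 62945 bp upstream (34.2, the others 58.3 to 62.9) and Vegfa 28387 bp upstream (3.9, the others 6.59 to 6.91), and tumor replicate 3 high at Egln3 545 bp downstream (39.5, the others 18.9 to 22.4).

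Changes differed between cohorts, by the test of the difference itself (limma adjusted p), at 6 places. C26 cachexia less NC26 was -1.32 (0.0085) and -1.28 (0.029) at Egln3 2074 bp upstream and 545 bp downstream, 0.62 (0.022) at Vegfa 20767 bp downstream and 1.44 (0.037) at Epas1 8208 bp downstream. 8025 cachexia less MC38 was -1.12 (0.041) at Egln3 2074 bp upstream. C26 less 8025 cachexia was -1.81 (0.04) at Egln1 22625 bp downstream, where 8025 cachexia replicate 3 is the library named above and without which the difference was -1.45 (0.14). Strain and library series go with these 2 cohorts and cannot be told apart from tumour.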

How the results depend on the processing

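Shares here are calls as a percent of the 177251 tested regions, and counts of regions are those of the 6 tested genes, without Hif3a. Of 90 pairs of region and comparison followed through 47 settings, 20 of the 47 calls held throughout and 0 calls changed direction. Direction was checked for calls only. Changes near 0 that were not called could switch sign, as at the Vegfa start-site region in C26 cachexia (-0.083 to 0.077 with 1 library left out). In C26 cachexia neither the 14% of regions called nor the 22 calls at the 6 genes moved by over 1.5 times in any setting. In pre-cachexia the share was 2.65% with DESeq2 and 2.27% with single cohorts (1.27% as reported), and calls at the 6 genes were 4 and 5, and 1 with edgeR, promoter share or a threshold of 0.01. In 8025 cachexia calls at the 6 genes were 7 with library totals and 9 at 0.01. In NC26 the share was 0.0818% with edgeR and 0.0401% with single cohorts, and calls at the 6 genes were 2 with DESeq2 and 0 with library totals, single cohorts or 0.01. In MC38 the share was 0.142% with DESeq2, 0.00564% with single cohorts and 0.0079% with promoter share. Cachexia against pre-cachexia gave 3.46% with promoter share, and at the 6 genes 14 calls with DESeq2 or loess and 5 with library totals or at 0.01. C26 less NC26 gave 0.972% and 1 call with library totals, and 1 call at 0.01. 8025 less MC38 gave 3.37% with DESeq2, 1.01% with library totals and 2.61% with pseudocount 5, and at the 6 genes 3 calls with DESeq2, 2 with single cohorts and 0 with library totals, with no series term or at 0.01. C26 less 8025 gave 0.451% with DESeq2, 0.031% with library totals, 0.243% with single cohorts, 0.013% with promoter share, 0.0609% and 0.414% with pseudocounts 0.5 and 5, and 0.0389% with the replicate block, and at the 6 genes 0 calls with library totals, promoter share, pseudocount 0.5, the block or 0.01. The cause was not tested. Library totals moved the share of calls that were higher from 76.6% to 92.2% in pre-cachexia, 56.5% to 69.1% in 8025, 78.5% to 92.2% in NC26 and 27.5% to 14.5% in C26 less 8025.

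Leaving out 1 library gave 10.7% to 12.6% of regions (17 to 24 calls at the 6 genes) in C26 cachexia, 0.485% to 1.4% (1 to 2) in pre-cachexia, 7.3% to 10.6% (9 to 18) in 8025, 0.0451% to 0.67% (0 to 2) in NC26, 0.00451% to 0.0378% (0 to 0) in MC38, 2.45% to 5.72% (3 to 12) for cachexia against pre-cachexia, 1.22% to 2.58% (1 to 6) for C26 less NC26, 0.649% to 2.07% (0 to 3) for 8025 less MC38 and 0.0361% to 0.221% (0 to 1) for C26 less 8025. Whether shared replicate numbers mark paired animals was not settled. Deviations of same-numbered libraries correlated at -0.065 to 0.07 in C26, -0.009 to 0.077 in NC26, -0.155 to 0.023 in MC38 and -0.057 to 0.016 in 8025. For differently numbered libraries from different groups of a cohort the ranges were -0.121 to 0.081, -0.099 to 0.102, -0.106 to 0.109 and -0.046 to 0.053, in the same order. With the replicate block the share called was 13.8%, 1.24%, 9.04%, 0.164% and 0.026% for C26 cachexia, pre-cachexia, 8025, NC26 and MC38, and 8 of the 90 pairs lost their call. Counting error is largest for the weakly open regions.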
